A study of Mus musculus with 16 samples.

Results

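ISG15 is a small ubiquitin-like protein that cells make in response to interferon and attach to other proteins, a reaction called ISGylation. An E1 enzyme activates ISG15, an E2 carries it, an E3 ligase transfers it to the target protein, and a protease takes it off again, so that the system has the same layout as ubiquitin conjugation. The genes of all these steps are known as interferon-stimulated genes, and free ISG15 also acts outside the conjugate, within cells and as a secreted protein. The 5 genes described here were chosen by name for these roles, with earlier results of these data known. The genes are Isg15 (the modifier), Uba7 (its E1), Ube2l6 (its E2), Herc6 (its main E3 ligase in the mouse) and Usp18 (its protease). Usp18 also dampens signalling at the type I interferon receptor. The 5 are among the 23356 genes in the expression table.

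Transcript levels were taken from RNA-seq of bone marrow-derived dendritic cells (BMDCs) of C57BL/6 background, grown for 6 days with 10 ng/ml each of GM-CSF and IL-4. Wild-type (WT) BMDCs and BMDCs of Tmem173-/-, Irf1-/- and Irf3/7-/- mice, aged 6 to 12 weeks, were left untreated or given c-di-GMP, a cyclic dinucleotide of bacteria, for 18 h. The sample labels give its dose as 25 ug/ml and the legends of the study give 50 ug/ml. Tmem173 encodes STING, the cytosolic sensor of cyclic dinucleotides, and Irf1, Irf3 and Irf7 encode interferon regulatory factors. The knockouts were of whole mice and not limited to dendritic cells, so every cell type of a culture carried the deletion. Each of the 8 conditions had 2 samples, which the authors combined into 1 FPKM value (a fragment count scaled to transcript length and library size) with an interval before deposition. No replicate value, and therefore no p-value, is given below, and the depth behind the values is unknown, since the study's methods state only a targeted depth. Whether the 2 samples came from separate mice or cultures is not stated. A gene was called changed when its log2(FPKM + 0.1) differed by more than 1 (2-fold), the authors' intervals did not overlap and at least 1 FPKM was reached in either condition. Fold changes and log2 differences below are on that log2(FPKM + 0.1) scale.

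The targeted genes and the cell makeup bear on every comparison of genotypes. Tmem173 was at 8.97 and 7.49 FPKM in untreated and treated Tmem173-/- BMDCs against 103 and 118 FPKM in WT. Reads of Irf1 remained in Irf1-/- BMDCs, at 25.9 FPKM untreated and 116 FPKM treated, where WT had 149 and 245 FPKM. Irf7 was at 1.07 and 4.97 FPKM in Irf3/7-/- BMDCs against 15.2 and 687 FPKM in WT, whereas Irf3 was lower only when untreated (7.74 against 19.95 FPKM) and stood at 20.2 FPKM after c-di-GMP. These are values of whole genes and do not show whether the deleted exons were read. All 6 dendritic cell markers examined were at or above 1 FPKM in each condition, with Flt3 the lowest at 1.17 to 2.75 FPKM. Their levels differed between genotypes. H2-Aa was at 364 and 462 FPKM in untreated and treated Irf1-/- against 1031 and 1424 FPKM in WT. Ccr7 was at 130 and 114 FPKM in Tmem173-/- against 265 and 1257 FPKM in WT. Itgax and Flt3 were higher than in WT in each of these knockouts. The summed FPKM of 6 T and NK cell markers was 386 and 353 in untreated and treated WT, 367 and 984 in Irf3/7-/-, 8.28 and 10.5 in Irf1-/-, and 0.436 and 0.413 in Tmem173-/- BMDCs. Gzma made up most of the sum in WT, Irf1-/- and Irf3/7-/-, and in Tmem173-/- it was listed at 0 and none of the 6 markers reached 1 FPKM. The 5 neutrophil markers found in the table, led by S100a8 and S100a9, summed to 18760 and 13550 FPKM in Tmem173-/- against 3960 and 1759 FPKM in WT and between 1372 and 2493 FPKM elsewhere. Cxcr2 alone of these markers was lower in untreated Tmem173-/- than in untreated WT (15.4 against 72.5 FPKM). After c-di-GMP it too was higher (16.4 against 7.20 FPKM). The 5 macrophage markers found summed to 251 and 264 FPKM in Tmem173-/-, 96.2 and 126 FPKM in WT and 72.0 to 91.3 FPKM elsewhere. Csf1r made up most of the Tmem173-/- sums (194 and 204 FPKM). Mertk was lower there than in WT (2.83 and 3.74 against 4.89 and 16.9 FPKM), as was treated Fcgr1 (29.3 against 40.6 FPKM). The other macrophage marker values in Tmem173-/- were above those in WT. The 5 markers of basophils and mast cells summed to 159 and 245 FPKM in Irf3/7-/-, 66.7 and 79.2 FPKM in WT and 55.0 to 86.3 FPKM elsewhere. The 4 B cell markers summed to 5.77 FPKM at most. The part of these other cells in the results below was not tested, and in bulk RNA fewer cells of a type and less RNA per cell cannot be told apart.

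The genes lie apart from one another except that 2 share a chromosome. On GRCm38, whose gene positions the table's coordinates matched, Isg15 spans chr4:156199424-156200818 on the minus strand. On the plus strand lie Uba7 at chr9:107975567-107984056, Ube2l6 at chr2:84798828-84810003, Herc6 at chr6:57580992-57665136 and Usp18 at chr6:121245906-121270917. All 5 are protein-coding, and no other gene of the table overlaps any of these loci.

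The promoter windows available for these genes differed in their matches to the short motifs searched. The RefSeq promoter set (GRCm38.p6) held 4 of the 5 genes, all but Usp18, each as a window from 250 bases before the transcription start to 50 bases after it. GAAANNGAAA, the core of the interferon-stimulated response element (ISRE), and AANNGAAA, the core bound by interferon regulatory factors, were searched on both strands, as was TTCNNNGAA, the GAS element of STAT dimers. Each GAAANNGAAA match holds an AANNGAAA match within it. The Isg15 and Uba7 sequences are printed up to the start site because they hold the matches found, which are in capitals, 5′ to 3′ along the gene, at chr4:156200819-156201068 on the minus strand and chr9:107975317-107975566 on the plus strand.
Isg15: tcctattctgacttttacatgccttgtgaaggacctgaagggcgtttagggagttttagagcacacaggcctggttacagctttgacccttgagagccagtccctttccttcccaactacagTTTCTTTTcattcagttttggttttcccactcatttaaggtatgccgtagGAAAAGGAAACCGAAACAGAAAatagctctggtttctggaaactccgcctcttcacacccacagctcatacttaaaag
Uba7: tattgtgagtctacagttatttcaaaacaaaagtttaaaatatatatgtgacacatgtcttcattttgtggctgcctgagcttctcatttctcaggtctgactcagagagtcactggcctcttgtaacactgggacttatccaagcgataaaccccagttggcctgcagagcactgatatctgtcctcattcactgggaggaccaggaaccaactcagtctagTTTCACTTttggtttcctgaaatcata
Isg15 had 3 overlapping GAAANNGAAA matches in a single run from 78 to 57 bases before its start, and a separate AANNGAAA match on the reverse strand between -128 and -121. Uba7 had no GAAANNGAAA match and 1 AANNGAAA match, on the reverse strand between -27 and -20. The windows of Ube2l6 and Herc6 had neither, and TTCNNNGAA was in none of the 4. Of 32851 promoters of this length, 3.44% held GAAANNGAAA, 23.9% AANNGAAA and 8.3% TTCNNNGAA. A match is a string of letters and not a shown binding site, and its lack in this window says nothing of sites elsewhere.

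c-di-GMP raised every gene of the system in WT BMDCs, with the modifier far ahead of its enzymes. Isg15, the modifier, was at 57.7 FPKM (interval 39.3 to 75.6) untreated and 2262 FPKM (1496 to 2756) after c-di-GMP. It moved from rank 1418 to rank 23 of all genes by FPKM, a 39.15-fold rise (log2 5.29). By log2 change it stood at rank 49 of the 11201 genes tested.

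The enzymes rose by less. Uba7, the activating enzyme, went from 23.9 FPKM (18.2 to 29.5) to 87.5 FPKM (67.2 to 108), or 3.66-fold. Ube2l6, the conjugating enzyme, had the highest value of the 5 when untreated, at 91.6 FPKM (64.7 to 115), and reached 286 FPKM (202 to 364), or 3.12-fold. Its rise was the smallest of the 5. Herc6, the ligase, went from 16.3 FPKM (12.1 to 20.1) to 93.4 FPKM (71.0 to 116), or 5.71-fold. Usp18, the protease, went from 42.3 FPKM (32.5 to 52.0) to 404 FPKM (307 to 500), or 9.54-fold. All 5 genes were called higher, where 10.5% of all genes tested were, and their median log2 change was 2.51 against 0.00 for all genes tested.

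**Figure D1:**
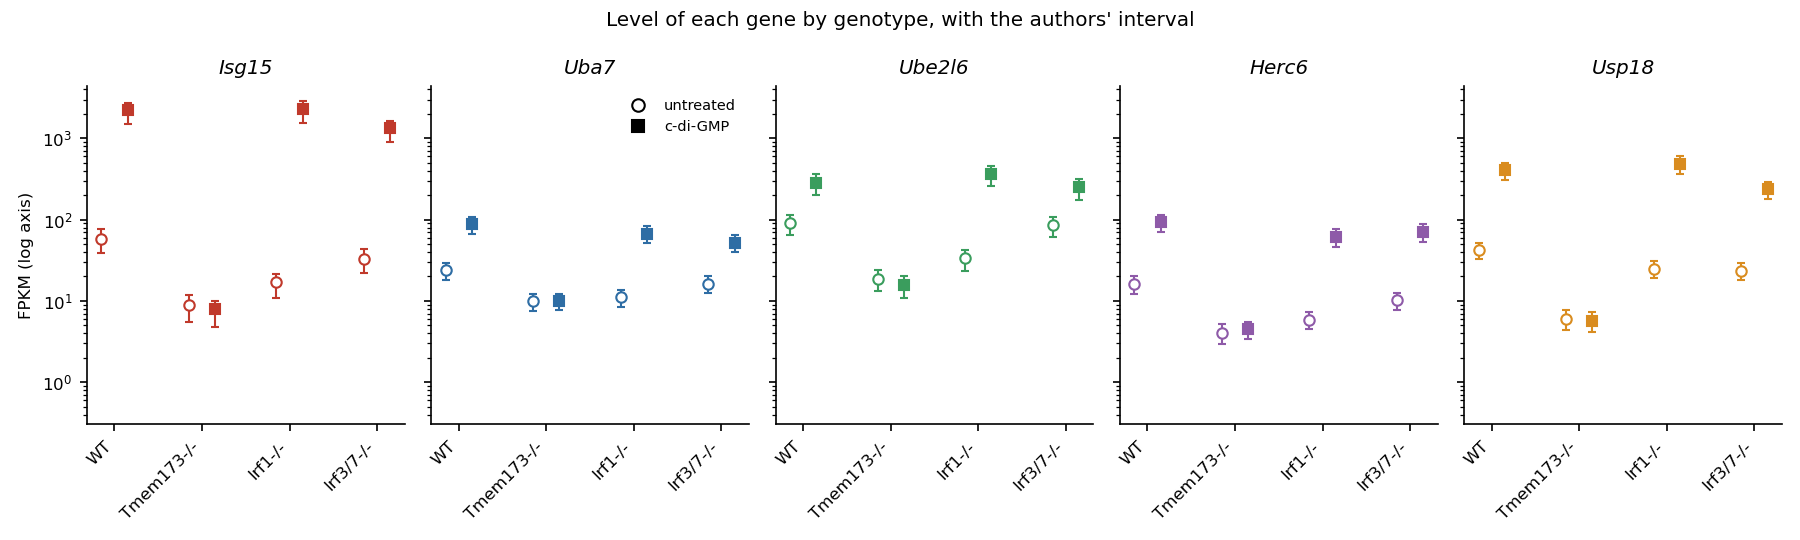
FPKM (log axis) of each gene in the 4 genotypes, untreated (open circles) and after 18 h of c-di-GMP (filled squares), with bars for the authors' interval of each value. Treated values stand above untreated ones in WT, Irf1-/- and Irf3/7-/-, whereas those of Tmem173-/- overlap, and Isg15 reaches 2262 FPKM in WT and 2308 FPKM in Irf1-/-.

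The order of levels within the system turned over with treatment. Untreated WT BMDCs had Ube2l6 first, followed by Isg15, Usp18, Uba7 and Herc6. Intervals of neighbours in that order overlapped except between Usp18 and Uba7. After c-di-GMP the order was Isg15, Usp18, Ube2l6, Herc6 and Uba7, with Isg15 apart from Usp18, Ube2l6 apart from Herc6, and the other neighbours overlapping. Since FPKM is per length, the modifier can be set against each enzyme: Isg15 stood at 2.42 FPKM per FPKM of Uba7 untreated and at 25.9 after c-di-GMP. The same ratio of Isg15 went from 0.630 to 7.91 against Ube2l6, from 3.55 to 24.2 against Herc6 and from 1.37 to 5.60 against Usp18. Of the 4 ratios, that to the protease Usp18 rose least. These are ratios of transcripts, and no protein was measured here.

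Without STING no gene of the system was called changed by c-di-GMP, and all 5 stood at their lowest levels. In Tmem173-/- BMDCs Isg15 was at 9.02 FPKM (5.47 to 11.7) untreated and 7.99 FPKM (4.79 to 9.89) treated. Uba7 was at 9.89 and 9.96 FPKM, Ube2l6 at 18.6 and 15.7 FPKM, Herc6 at 4.06 and 4.46 FPKM, and Usp18 at 6.04 and 5.73 FPKM. Intervals of treated and untreated cells overlapped for each gene, and log2 changes lay between -0.24 and 0.14. Thus 0 of the 5 was called in either direction, in a comparison in which 0.0552% of genes tested were.

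Against treated WT, all 5 genes were called lower in treated Tmem173-/- BMDCs, where 13.5% of genes tested were. The log2 difference was -8.13 for Isg15, -3.12 for Uba7, -4.17 for Ube2l6, -4.36 for Herc6 and -6.12 for Usp18. Their median was -4.36, against 0.02 for all genes tested. Isg15 was 279.8-fold and Usp18 69.3-fold lower. Uba7, the least changed, was 8.71-fold lower. The neutrophil marker sum was higher and the T and NK cell marker sum lower in the same cultures, as given above, and their part was not tested.

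The system was lower in Tmem173-/- BMDCs before any c-di-GMP was added. All 5 genes were called lower than in untreated WT, against 5.95% of genes tested, with log2 differences of -2.66 for Isg15, -1.26 for Uba7, -2.29 for Ube2l6, -1.98 for Herc6 and -2.79 for Usp18. The median was -2.29, against 0.01 for all genes tested. Isg15 was 6.33-fold and Usp18 6.90-fold lower without stimulation. The T and NK cell marker sum of these cultures was 0.436 FPKM against 386 FPKM in WT, and its part was not tested.

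Irf1-/- BMDCs had less of the system than WT when untreated, and no difference was called after c-di-GMP. Untreated, Isg15 was at 17.0 FPKM (10.8 to 21.2), Uba7 at 11.0 FPKM (8.45 to 13.6), Ube2l6 at 33.4 FPKM (23.6 to 42.3), Herc6 at 5.91 FPKM (4.46 to 7.33) and Usp18 at 24.9 FPKM (19.1 to 30.8). The modifier and the 3 conjugating enzymes were called lower than in untreated WT, 4 of 5 genes where 3.52% of genes tested were. Their log2 differences were -1.76 for Isg15, -1.10 for Uba7, -1.45 for Ube2l6 and -1.45 for Herc6. The protease Usp18 differed least, by -0.76 with intervals apart, and stayed under the 2-fold threshold. In the order of levels over conditions, untreated Irf1-/- came next above Tmem173-/- for Isg15, Uba7, Ube2l6 and Herc6. Its intervals overlapped those of untreated Tmem173-/- for these 4 genes, but for Isg15 and Ube2l6 stood apart from treated Tmem173-/-. For Usp18, untreated Irf1-/- and Irf3/7-/- overlapped and both stood apart from Tmem173-/-. The median over the 5 was -1.45, against 0.00 for all genes tested. The T and NK cell marker sum was 8.28 FPKM in these cultures against 386 FPKM in WT, so the deletion and the cell makeup cannot be told apart.

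After c-di-GMP, Isg15 was at 2308 FPKM (1544 to 2848) in Irf1-/- BMDCs, next to 2262 FPKM in WT. Uba7 reached 67.2 FPKM (51.3 to 83.1), Ube2l6 364 FPKM (256 to 461), Herc6 61.0 FPKM (46.1 to 75.8) and Usp18 484 FPKM (369 to 600). All 5 intervals overlapped those of treated WT. None of the 5 was called against treated WT, where 7.56% of genes tested were, and the log2 differences were 0.03, -0.38, 0.35, -0.61 and 0.26 in the same order of genes. The bounds of the intervals allow a difference of Isg15 between -0.84 and 0.93, so a smaller one could not be seen. The T and NK cell marker sum was 10.5 FPKM here against 353 FPKM in treated WT, and its part was not tested.

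Within the genotype all 5 were called higher, against 9.67% of genes tested, with a median log2 change of 3.44 against 0.00 for all genes tested. Isg15 rose 135-fold (log2 7.08), which put it at rank 20 of 11164 genes tested. Uba7 rose 6.03-fold, Ube2l6 10.9-fold, Herc6 10.2-fold and Usp18 19.3-fold.

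**Figure D2:**
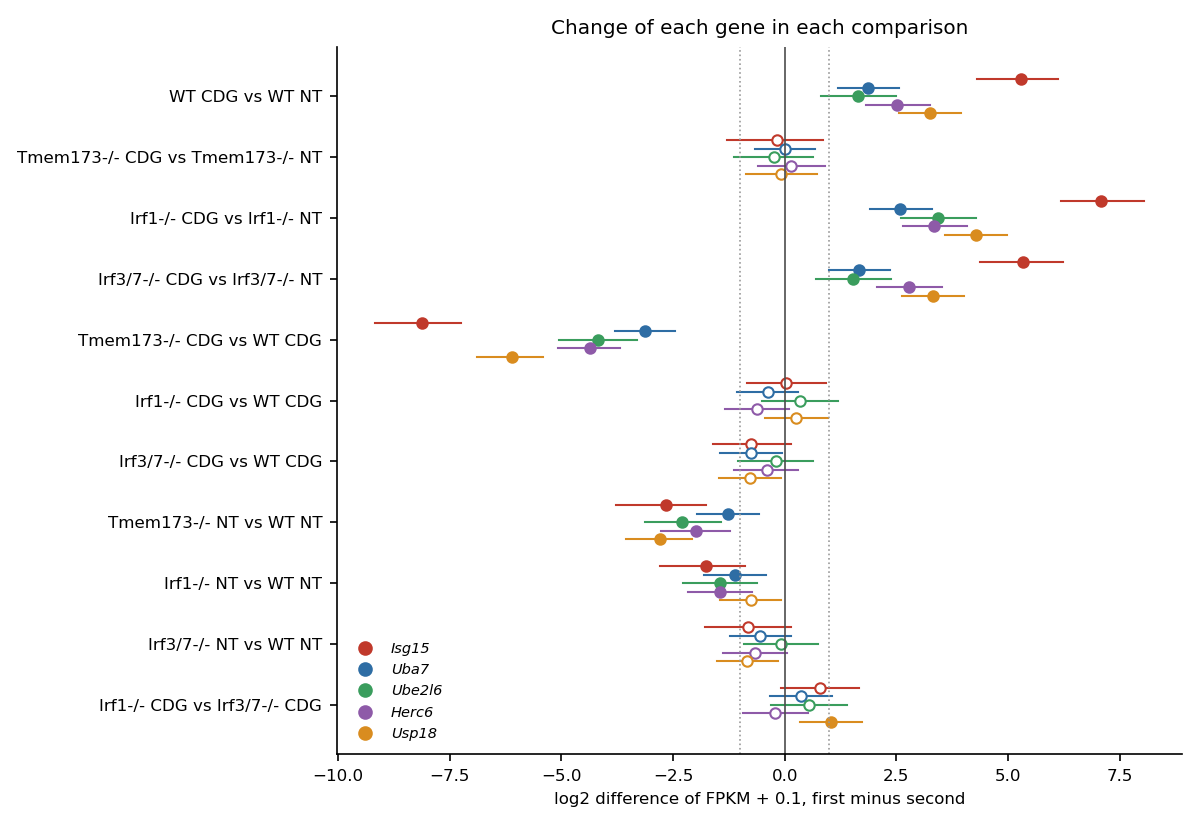
Difference in log2(FPKM + 0.1) of each gene (colour) in the 11 comparisons, where CDG is c-di-GMP and NT untreated. Points are the differences, filled where called, lines run between the differences that the ends of the authors' intervals allow, and dotted lines mark 2-fold. Rises are seen within WT, Irf1-/- and Irf3/7-/-, falls in both comparisons of Tmem173-/- with WT, and lower values in untreated Irf1-/-, whereas no gene was called in treated Irf1-/- against treated WT (Herc6 -0.61, Uba7 -0.38).

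All 5 genes also rose in Irf3/7-/- BMDCs. Isg15 went from 32.8 FPKM (21.9 to 43.3) to 1339 FPKM (905 to 1642), a 40.7-fold rise. Uba7 went from 16.3 to 52.1 FPKM (3.18-fold), Ube2l6 from 86.1 to 249.8 FPKM (2.90-fold) and Herc6 from 10.2 to 70.4 FPKM (6.86-fold). Usp18 went from 23.6 FPKM (18.1 to 29.1) to 236 FPKM (180 to 291), or 9.96-fold. The 5 calls compare with 10.2% of genes tested called higher, and the median log2 change was 2.78 against 0.00 for all genes tested. The cells had 4.97 FPKM of Irf7 after c-di-GMP, against 687 FPKM in WT. Irf3 was not lower in the treated cells, as given above, so its absence at that time is not shown by the data.

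The levels themselves lay somewhat below WT. After c-di-GMP the log2 differences from WT were -0.76 for Isg15, -0.75 for Uba7, -0.19 for Ube2l6, -0.41 for Herc6 and -0.78 for Usp18. None was called, where 7.3% of genes tested were. The intervals of Uba7 and Usp18 were apart, at less than 2-fold. Untreated, the differences from WT ran from -0.84 (Usp18) to -0.09 (Ube2l6), and none was called, where 2.04% of genes tested were. The intervals of Usp18 alone were apart. The T and NK cell marker sums in these cultures were 367 FPKM untreated and 984 FPKM treated, and their part was not tested.

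Set against each other after c-di-GMP, the 2 factor knockouts differed in the protease. Usp18 was 2.05-fold higher in Irf1-/- than in Irf3/7-/- BMDCs (log2 1.04), the 1 call among the 5 genes, where 3.22% of genes tested were called higher. With conditions centred on their median gene the log2 difference was 0.96 and the call was lost. Isg15 differed by 0.79, Uba7 by 0.37, Ube2l6 by 0.54 and Herc6 by -0.21, all with overlapping intervals.

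The change with c-di-GMP in each knockout can be put as a share of the log2 change in WT, with the WT values common to all 3 shares. In Tmem173-/- BMDCs the shares ran from -14.7% for Ube2l6 to 5.38% for Herc6. In Irf3/7-/- they ran from 89.3% for Uba7 to 110.5% for Herc6, with Isg15 at 101%. In Irf1-/- they ran from 131% for Usp18 to 209.7% for Ube2l6, so that each gene changed by more than in WT. That change started from lower untreated levels, with log2 differences from WT of -1.76 to -0.76. The treated levels differed from WT by -0.61 to 0.35, above it for Isg15, Ube2l6 and Usp18 and below it for Uba7 and Herc6. None was called, and the bounds of the intervals allow a difference in either direction for each gene. Over the 1175 genes called higher in WT, the median share was 1.54% in Tmem173-/-, 93.4% in Irf1-/- (quartiles 63.8% and 119%) and 84.2% in Irf3/7-/- (quartiles 59.8% and 106%). All 5 shares in Irf1-/- thus lay above the upper quartile. Only 22 of the 1175 genes had a larger share there than Ube2l6, and 155 to 200 had a larger share than each of the others.

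The difference between the log2 change in Irf1-/- and that in WT was 1.79 for Isg15, 0.72 for Uba7, 1.80 for Ube2l6, 0.83 for Herc6 and 1.02 for Usp18. Each exceeded the error combined from the 4 intervals, which was 0.85, 0.68, 0.81, 0.70 and 0.68. Of all genes tested 3.34%, and of those called higher in WT 11.5%, did so in that direction. For Uba7 the margin was small. In Irf3/7-/- the differences lay between -0.20 and 0.26, and none of the 5 exceeded its error, where 4.68% of genes tested did so upwards and 2.98% downwards. Of those called higher in WT, 5.59% did so upwards and 17.8% downwards. In Tmem173-/- all 5 exceeded it downwards, where 14.4% of genes tested did. Of those called higher in WT 90.5% did, so this was shared by most induced genes.

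**Figure D3:**
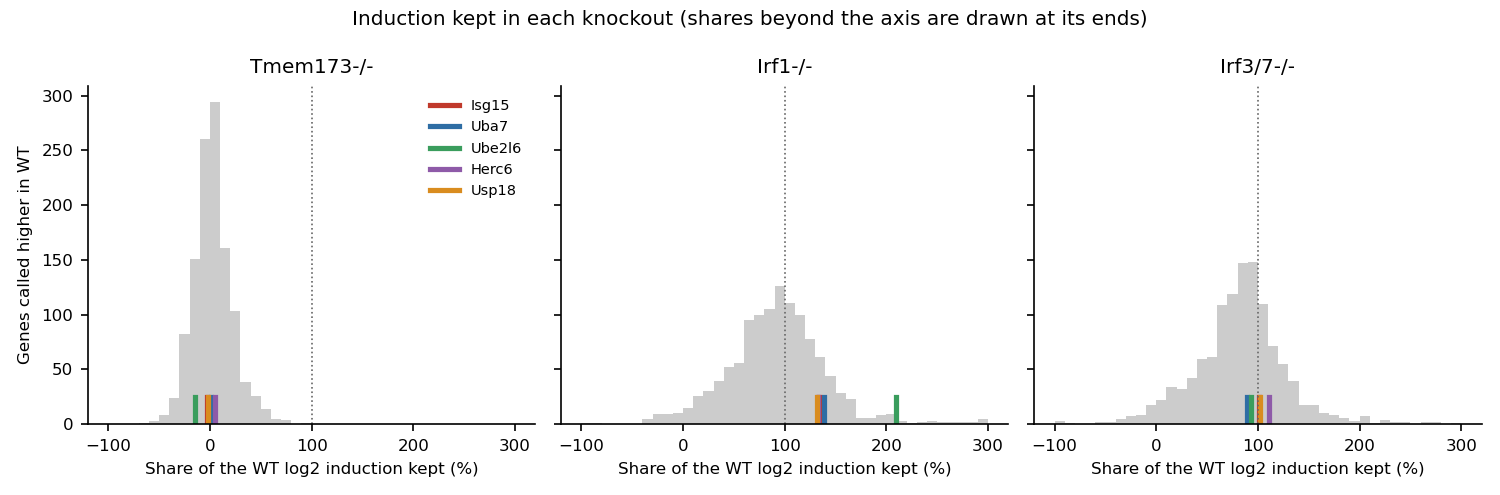
Share of the WT log2 change with c-di-GMP that each knockout kept (horizontal axis, %), as a histogram of the 1175 genes called higher in WT, with the 5 genes as coloured ticks and 100% dotted. The ticks lie around 0 in Tmem173-/-, above 100% in Irf1-/- and around 100% in Irf3/7-/-.

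Each gene had the largest rise of its family in the 3 responding genotypes. Of 9 other E1-like enzymes, none was called in any of the 11 comparisons, and Uba7 had the largest log2 change of the 10 in WT, Irf1-/- and Irf3/7-/-. The share of all genes tested called in either direction ran from 0.0552% within Tmem173-/- to 26.3% in treated Tmem173-/- against treated WT. By level, Uba7 was at rank 5 of the 10 in untreated WT and at rank 2 after c-di-GMP, behind Uba1 (the E1 of ubiquitin, 164 FPKM). Of 29 other genes tested whose symbols start with Ube2, none was called higher in WT and 2 were called lower, where 10.5% and 9.96% of all genes tested were. These were Ube2c, which serves the anaphase-promoting complex (90.9 to 17.8 FPKM), and Ube2t, of the Fanconi anaemia pathway (7.38 to 2.47 FPKM). Ube2l6 was at rank 6 of the 37 by level in untreated WT and at rank 1 after c-di-GMP. The median log2 change in WT was -0.20 over the other E1-like enzymes and 0.14 over the other Ube2 genes, against 0.00 for all genes tested.

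The other 4 HERC genes were not called in WT, and Herc3 was called higher in Irf3/7-/-, from 2.67 to 6.35 FPKM. In Irf3/7-/- 10.2% of all genes tested were called higher. Of 39 other ubiquitin-specific proteases tested in WT, Usp25 (30.0 to 65.6 FPKM) and Usp40 (5.20 to 10.8 FPKM) were called higher and Usp10 (14.8 to 6.79 FPKM) lower. The shares of all genes tested in WT were 10.5% called higher and 9.96% called lower. The median log2 change of these 39 proteases was 0.17. Usp18 had the highest FPKM of its family in all 3 responding genotypes after c-di-GMP.

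Among 13 other ubiquitin-like modifiers tested in WT, Ubd alone was called, where 10.5% of all genes tested were called higher and 9.96% lower. Ubd encodes FAT10, a modifier that sends proteins to the proteasome, and it went from 5.27 to 137 FPKM. It differed from Isg15 across genotypes: after c-di-GMP Ubd was at 0.895 FPKM in Irf1-/-, 15.3 FPKM in Irf3/7-/- and 0.0186 FPKM in Tmem173-/- BMDCs. Against treated WT its log2 difference was -7.11 in Irf1-/- and -3.16 in Irf3/7-/-, where Isg15 differed by 0.03 and -0.76.

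**Figure D4:**
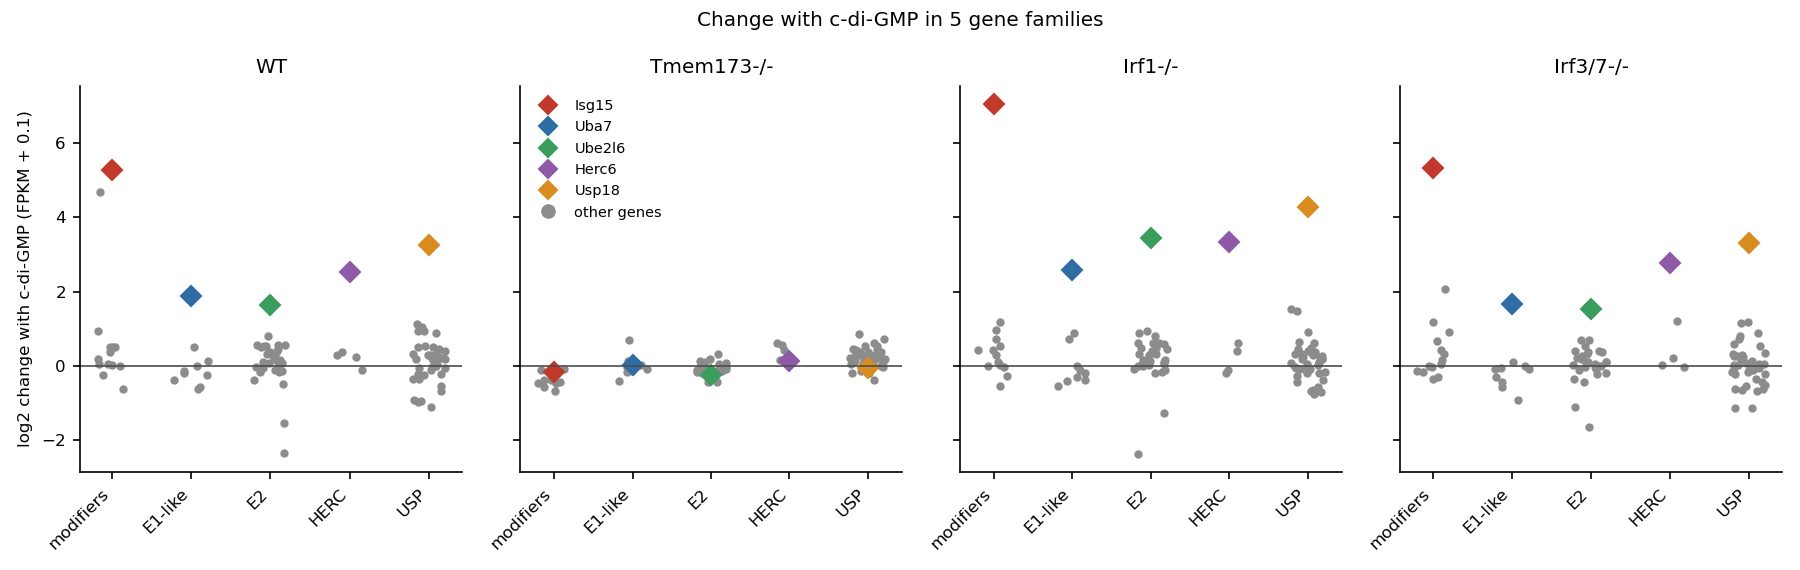
Change in log2(FPKM + 0.1) with c-di-GMP in each genotype for ubiquitin-like modifiers, E1-like enzymes, genes named Ube2, HERC genes and ubiquitin-specific proteases (USP), with the gene of the ISG15 system as a coloured diamond and the other genes tested as grey points. The diamonds top their families in WT, Irf1-/- and Irf3/7-/-. In Tmem173-/- they lie among the grey points, except that Herc6 lies just below the other HERC genes. The grey point near Isg15 in WT is Ubd.

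Of 8 further enzymes reported to act on ISG15, 6 could be tested in WT and 1 was called higher, where 10.5% of all genes tested were. Trim25, a ligase that is also an ISG15 target, rose from 26.0 to 121 FPKM in WT, from 21.1 to 118 FPKM in Irf1-/- and from 19.1 to 77.6 FPKM in Irf3/7-/-, and was at 14.8 and 17.6 FPKM in Tmem173-/-. Arih1, another ligase, was at 28.7 and 29.6 FPKM in WT, and the protease Usp16 at 17.4 and 18.0 FPKM. Usp14, at 33.5 and 17.0 FPKM in WT, was not called there. Of 5 partners of free ISG15 or USP18, Sqstm1, an autophagy receptor, was called higher in WT (138 to 459 FPKM), whereas the receptor subunits Itgal and Itgb2, through which secreted ISG15 acts, were at 46.0 and 45.4 FPKM and at 259 and 210 FPKM.

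The interferon inputs of the system moved in part. Of 11 such genes, 4 were called higher in WT, 6 in Irf1-/-, 4 in Irf3/7-/- and none of 10 tested in Tmem173-/-. The shares of all genes tested were 10.5% in WT, 9.67% in Irf1-/-, 10.2% in Irf3/7-/- and 0.046% in Tmem173-/-. The calls include remaining reads of deleted genes, namely Irf1 in Irf1-/- (25.9 to 116 FPKM) and both Irf3 (7.74 to 20.2 FPKM) and Irf7 (1.07 to 4.97 FPKM) in Irf3/7-/-. Stat2, which carries the interferon signal to the ISRE, rose from 42.4 to 155 FPKM in WT, from 22.9 to 156 FPKM in Irf1-/- and from 28.2 to 109 FPKM in Irf3/7-/-. Ifnb1, the interferon beta gene, was listed at 0 in untreated WT and at 2.93 FPKM after c-di-GMP. Its treated level was 3.53 FPKM in Irf1-/-, 22.6 FPKM in Irf3/7-/- and 0.0474 FPKM in Tmem173-/-.

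The genes closest in pattern to the mean profile of the 5 were sought among 7377 others with 10 FPKM or more in any condition. Likeness was the root mean square difference of the centred log2 profiles over the 8 conditions, which share genotypes and libraries. Xaf1, an interferon-induced antagonist of an inhibitor of apoptosis, was nearest, at 0.17 log2 units (Pearson's r 0.997 over 8 conditions). With c-di-GMP it went from 10.8 to 78.0 FPKM in WT, from 3.46 to 60.8 FPKM in Irf1-/- and from 5.80 to 58.0 FPKM in Irf3/7-/-, and it was at 2.47 and 2.02 FPKM in Tmem173-/- BMDCs. The next were Slfn5 (0.25), the costimulatory receptor gene Cd40 (0.30), Sdcbp2 (0.34) and Il2ra, a subunit of the IL-2 receptor (0.38).

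The 5 genes themselves lay 0.39 (Herc6), 0.45 (Usp18), 0.54 (Ube2l6), 0.87 (Uba7) and 1.32 (Isg15) log2 units from their mean, which holds each of them. For Isg15, 362 other genes lay closer to that mean, and for Herc6 5 did. The single nearest gene was Pydc3 for Isg15 (0.29), Sp140 for Uba7 (0.19), H2-T22 for Ube2l6 (0.26), Il15 for Herc6 (0.23) and Dusp14 for Usp18 (0.37). No 2 of the 5 had the same nearest gene.

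**Figure D5:**
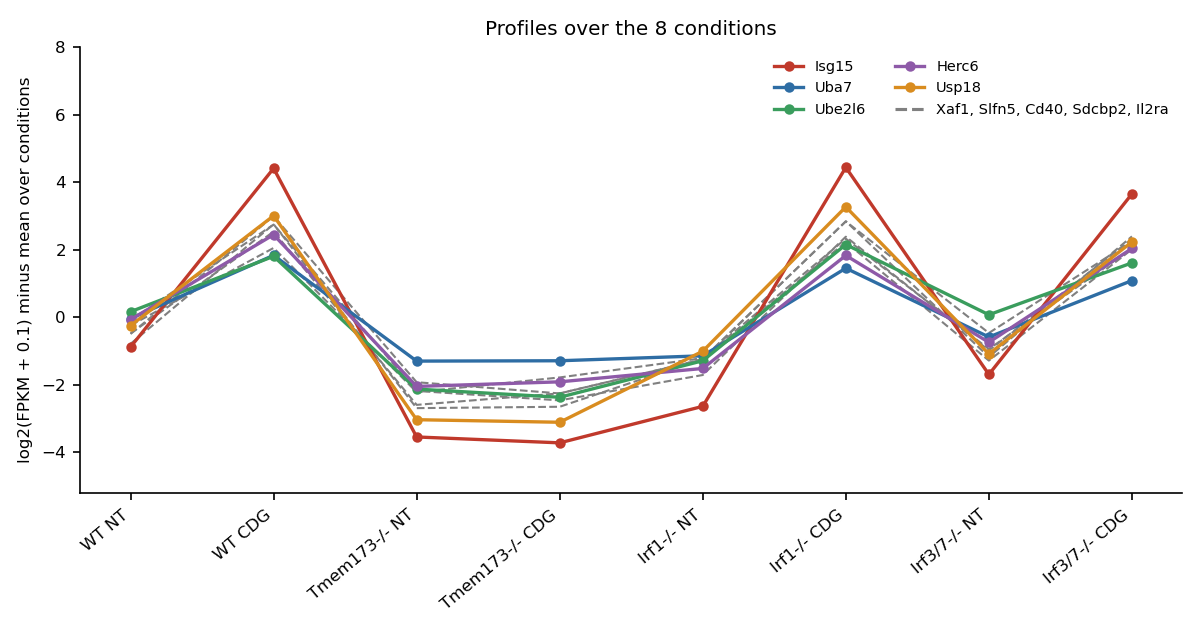
Centred log2(FPKM + 0.1) of the 5 genes (coloured lines) and of the 5 other genes nearest to their mean profile (grey dashed lines) over the 8 conditions (CDG, c-di-GMP; NT, untreated). The lines peak in treated WT, Irf1-/- and Irf3/7-/- BMDCs and are lowest in both conditions of Tmem173-/-, with Isg15 spanning the widest range.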

How the data were processed

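RNA-seq was analysed in 16 samples, 2 for each of 8 conditions. Libraries were stranded mRNA libraries read in pairs of 35 bases. The deposited table holds, per gene and condition, 1 FPKM that the authors made with Cuffdiff, with the bounds of its interval (level not given in the sources used here) and a status. The submitters' processing notes name Cuffdiff 1.06 and mm9, but 21454 of 21681 gene loci with a single annotated gene of the same name overlapped it on GRCm38 (GENCODE), so GRCm38 was used. The aligner and annotation are not given in the sources used here. Depth cannot be read from FPKM. The table has 4 further columns, of another knockout, which were not used.

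FPKM were transformed as log2(FPKM + 0.1). Genes were tested at 1 FPKM or more in either condition with status OK in both, and called above 2-fold with intervals apart, in 11 comparisons. Replicates were combined by the authors, so no test across samples was run. Comparisons that share a condition are not independent. The error of a difference of changes is the root of the summed squares of the intervals' relative reach on each side. The script was tested on simulated data. Python 3.11.15 with numpy 2.4.6 and pandas 2.3.3 was used.

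The genes, lists and rules were chosen with earlier results of these data known. Named are the 5 genes, targeted genes, the called members of pathway lists (at most 4 per list and comparison, by size), the 5 nearest profiles and each gene's nearest. Uncalled list members and other interferon-stimulated genes given for contrast, and the quoted marker genes, were chosen after their values were seen. Some list members are not reported here. The lists go by symbol, so Ube2 includes variants and binding proteins. 8 alternatives were run: pseudocounts of 1 and 0.01 FPKM, no filter, a minimum of 5 FPKM, thresholds of 1.5-fold and 4-fold, centring on the median, and fold change alone.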

Additional observations from a re-analysis of the deposited data

Results flagged for a closer look

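Each of the following sets a pair of log2 differences under the same contrast side by side because they had opposite signs. Each condition is a single combined value, so the difference was not tested across samples, although each exceeded the error combined from the authors' 4 intervals (0.91, 0.83 and 0.73 for the first 3 differences below, and 0.85, 0.81 and 0.68 for the others). The change with c-di-GMP was 5.29 in WT and -0.17 in Tmem173-/- BMDCs for Isg15 (difference -5.46), 1.64 and -0.24 for Ube2l6 (difference -1.88), and 3.25 and -0.08 for Usp18 (difference -3.33). The Tmem173-/- values of all 3 genes lie within overlapping intervals, so their sign carries no information.

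The difference between Irf1-/- and WT was -1.76 untreated and 0.03 after c-di-GMP for Isg15 (difference 1.79), -1.45 and 0.35 for Ube2l6 (difference 1.80), and -0.76 and 0.26 for Usp18 (difference 1.02). All 3 treated differences lie within overlapping intervals. The sum of T and NK cell markers was 8.28 and 10.5 FPKM in the Irf1-/- cultures against 386 and 353 FPKM in WT, and its part was not tested.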

How the results depend on the processing

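No paired analysis was possible because the authors combined the 2 samples of each condition before deposition, and no sample could be left out for the same reason. No direction was reversed. The 55 calls and non-calls (5 genes in 11 comparisons) were the same under both pseudocounts, without the filter and with fold change alone, as were the 54 that could be tested at a minimum of 5 FPKM. At 1.5-fold 4 were gained: Uba7 and Usp18 in treated Irf3/7-/- against treated WT (2 of 5 called), and Usp18 in untreated Irf3/7-/- (1 of 5) and untreated Irf1-/- against untreated WT. At 4-fold 11 were lost, which left 3 of 5 genes within WT, 3 within Irf3/7-/-, 3 in untreated Tmem173-/- against WT, 0 in untreated Irf1-/- against WT and 0 between the treated factor knockouts. With centring on the median 1 was lost, Usp18 between the treated factor knockouts (0 of 5). By Pearson's r in place of the root mean square difference, 1 of the 5 nearest genes, Xaf1, was shared.

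Counts over all genes moved more. At 4-fold the calls fell from 2291 to 592 within WT, 1952 to 589 within Irf1-/-, 2015 to 500 within Irf3/7-/-, 2980 to 1174, 838 to 232 and 818 to 207 in treated Tmem173-/-, Irf1-/- and Irf3/7-/- against WT, 1221 to 422, 527 to 176 and 224 to 36 in the same untreated knockouts, and 1106 to 381 between the factor knockouts. Within Tmem173-/- the 6 calls became 1 or 11 with pseudocounts of 1 or 0.01 FPKM, 10 without the filter, 56 at 1.5-fold, 0 at 4-fold, 17 with centring (94.1% of them higher against 83.3%) and 83 with fold change alone. At a minimum of 5 FPKM the calls against WT were 538 and 460 in treated Irf1-/- and Irf3/7-/-, 800, 323 and 112 in untreated Tmem173-/-, Irf1-/- and Irf3/7-/-, and 723 between the factor knockouts. In Irf3/7-/- against WT a pseudocount of 1 FPKM gave 536 treated and 118 untreated, and 1.5-fold gave 350 untreated. Precision rests on the authors' intervals, which reached 22.9% to 34.4% to either side of the members' values and cannot be checked against samples here.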
